A study of Homo sapiens with 18 samples.

Results

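The 9 genes VWF, THBD, PROCR, TFPI, TFPI2, F3, PLAT, PLAU and PLAUR act in clotting and clot removal at the endothelial surface. They were taken by symbol from the platform annotation of the deposited value table, where each had 1 probe set, out of 18417 genes that could be named. The RNA was from human umbilical vein endothelial cells (HUVEC), a cultured endothelium, read on 18 whole-transcript arrays, 3 in each of 6 groups. In 4 groups HUVEC had spent 3 days with vesicles shed by T cells (extracellular vesicles, EVs). The donor was either Jurkat, a T cell leukaemia line, or JinB8, its mutant without the receptor CD47. Beads bearing an antibody had pulled down the vesicles by one of 2 surface proteins, the tetraspanin CD63 or MHC class 1 (MHC1 here). The groups were JinB8 CD63+ EVs, Jurkat CD63+ EVs, JinB8 MHC1+ EVs, Jurkat MHC1+ EVs, beads carrying only immunoglobulin G (IgG beads), and untreated HUVEC. The IgG beads were also given for 3 days, and no time is given for untreated HUVEC. JinB8 is a single mutant line, and since CD47 is missing in the donor T cells, arrays of HUVEC RNA cannot check it. Donor media had been pooled before the vesicles were purified. Nothing states that arrays of a group are separate cultures, so the p-values reflect only the spread between these arrays, which may be technical.

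Clotting starts when tissue factor, the product of F3, is exposed to blood and forms thrombin through a chain of proteases. Quiescent endothelium restrains this chain. TFPI blocks the tissue factor complex, thrombomodulin (THBD) turns thrombin into an activator of protein C, and the endothelial protein C receptor (PROCR) presents protein C to it. Von Willebrand factor (VWF), stored in Weibel-Palade bodies, tethers platelets and carries factor VIII. Clots are removed by plasmin, which tissue plasminogen activator (PLAT) and urokinase (PLAU) make from plasminogen; PLAUR is the cell surface receptor of urokinase. TFPI2 is a matrix-bound relative of TFPI that inhibits plasmin and other proteases.

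The third arrays of both control groups stood apart from the rest before any gene was considered. Their median Pearson's r with all other arrays was 0.636 for beads and 0.649 for untreated cells, and the lowest r of any pair among the other 16 arrays was 0.932. Endothelial markers (12 of 12 measured) averaged between 9.50 and 9.68 in the 12 EV arrays and between 9.56 and 9.68 in the 4 other control arrays. In the third bead array and the third untreated array they averaged 6.34 and 7.28. Markers of other cell types were higher in these arrays than in the 4 other controls: 4.86 to 4.88 against 3.88 to 4.04 for T cells, 5.44 to 5.6 against 4.31 to 4.54 for fibroblasts and smooth muscle, 5.75 to 5.82 against 4.59 to 4.74 for epithelium, 5.28 to 5.43 against 4.95 to 5.09 for monocytes and 4.75 to 5.36 against 4.14 to 4.33 for platelets. In the EV arrays monocyte markers averaged 4.93 to 5.465, a range that holds the values of the third control arrays. Platelet markers reached 4.80 in the EV arrays, so they overlapped too. Signals in the third control arrays were also less spread out. The SD over all probe sets was 1.566 in the third bead array and 1.565 in the third untreated array, against 2.005 to 2.251 in the other 16. Their array medians were higher too, at 5.31 and 5.23, against 4.86 to 5.13. Whether the narrower spread accounts for the marker values, and what part either had in the results, was not tested. Markers of T cells (7 of 8 measured) and platelets (5 measured) averaged 3.81 to 4.30 and 4.11 to 4.80 in the EV arrays and 3.88 to 4.04 and 4.14 to 4.33 in the 4 other controls. None of these T cell or platelet markers lay above the array median (4.86 to 5.13 in the 16 arrays) in all arrays of either set. All signals below are log2 RMA values, so a difference of 1 is a doubling of signal. In bulk RNA, fewer cells of a type and less RNA per cell cannot be told apart.

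None of the 9 genes passed the test in any of 16 comparisons, whether on 18 arrays or on the 16 without the third control arrays. A gene was called when limma's moderated test, adjusted by Benjamini and Hochberg over all 18417 genes, gave an adjusted p under 0.05. Over all genes, 0% to 0.0434% were called in the 18 arrays and 0% to 0.386% in the 16 arrays, so a count of 0 among 9 is near the background. For the EV groups together against the beads, 0 of 9 were called in the 18 arrays (0.00543% of all genes) and 0 of 9 in the 16 arrays (0.0434%). At an unadjusted p under 0.05 the counts were 1 of 9 in the 18 arrays (3.83% of all genes), namely THBD, and 3 of 9 in the 16 arrays (3.21%), namely VWF, THBD and TFPI2. The median difference of the 9 genes was 0.65 in the 18 arrays, where the median of all genes was -0.06. In the 16 arrays it was -0.03, against 0.01 over all genes. For single genes the text below says where arrays of groups did not overlap. The share of all genes that separate in the same way was not counted, so these statements only describe the values.

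**Figure D1:**
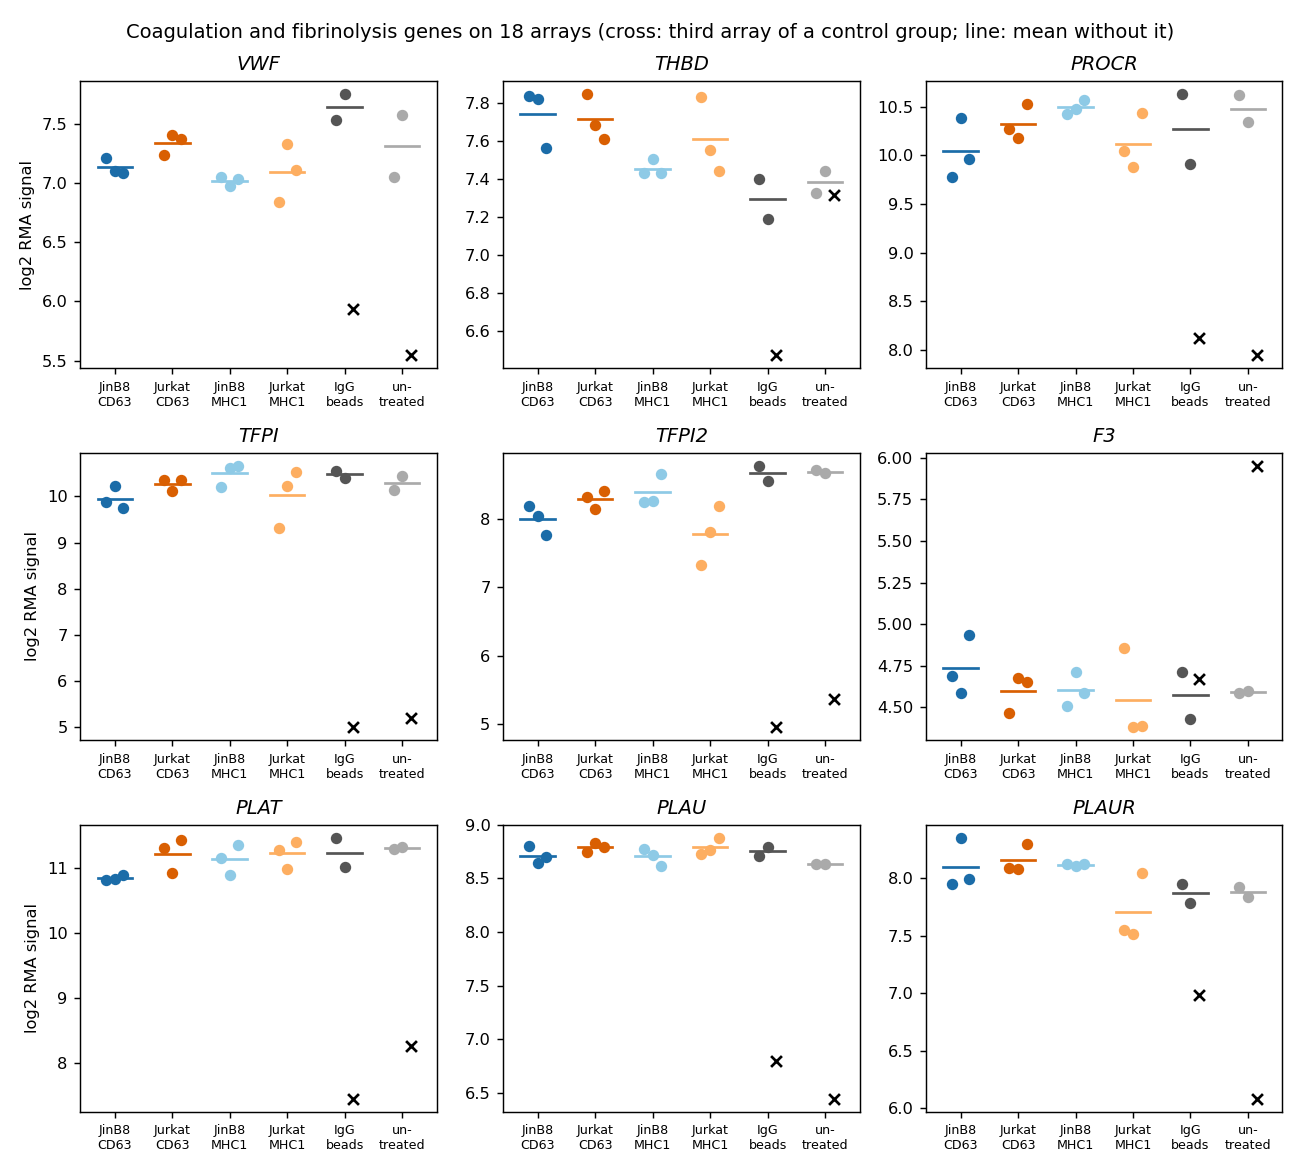
Log2 RMA signal (vertical axes, scaled per gene) of the 9 genes on each of 18 arrays, by group. Points are arrays, crosses are the third arrays of IgG beads and of untreated cells, and lines are group means without the crosses. The crosses lie far below the other arrays for VWF, PROCR, TFPI, TFPI2, PLAT, PLAU and PLAUR. For THBD only the bead cross does, and for F3 the untreated cross lies above the other arrays.

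TFPI2, the matrix-bound Kunitz-type inhibitor, had lower values in most EV arrays than in the control arrays that resembled the rest. It stood at 8.19, 8.04 and 7.77 with JinB8 CD63+ EVs, at 8.32, 8.14 and 8.41 with Jurkat CD63+ EVs, at 8.25, 8.27 and 8.66 with JinB8 MHC1+ EVs, and at 7.33, 7.82 and 8.20 with Jurkat MHC1+ EVs. The bead arrays gave 8.77, 8.56 and 4.96 and the untreated arrays 8.71, 8.67 and 5.37. Without the third control arrays, 11 of the 12 EV arrays lay below every control array, and the exception was the third JinB8 MHC1+ array. Against the beads the difference of the 4 EV groups was 0.68 ± 0.71 (SE) in the 18 arrays (limma adjusted p = 0.56). In the 16 arrays it was -0.55 ± 0.18 (adjusted p = 1.0; 95% interval -0.93 to -0.17), a fold of 0.683. Its sign therefore turned with the third bead array. Against the beads and untreated cells together, the difference in the 16 arrays was -0.56 ± 0.14 (adjusted p = 0.20), with 0 of 9 genes called (0.125% of all genes). When the spread of each array over all probe sets was added as a covariate, TFPI2 was lower by -0.48 ± 0.09 (limma adjusted p = 0.010) in that comparison, 1 of 9 genes called where 0.999% of all genes were; this fit was chosen after seeing the data.

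VWF, the platelet-tethering glycoprotein, was lower in every EV array than in the first and second bead arrays. Its values were 7.22, 7.10 and 7.09 with JinB8 CD63+ EVs, 7.24, 7.41 and 7.38 with Jurkat CD63+ EVs, 7.05, 6.97 and 7.03 with JinB8 MHC1+ EVs, and 6.84, 7.33 and 7.12 with Jurkat MHC1+ EVs. They were 7.53, 7.76 and 5.94 with beads and 7.06, 7.58 and 5.55 in untreated cells. The first untreated array lay inside the range of the EV arrays, and 4 of the 12 EV arrays lay below all 4 of the other controls. The difference of the EV groups from the beads was 0.07 ± 0.37 in the 18 arrays (limma adjusted p = 0.90) and -0.50 ± 0.14 in the 16 (adjusted p = 0.72; 95% interval -0.79 to -0.20). Within the 16 arrays it was largest with JinB8 MHC1+ EVs, at -0.62 ± 0.17 (adjusted p = 0.30), where 0 of 9 genes were called (0.212% of all genes). With the array spread as a covariate that difference was -0.67 ± 0.15 (adjusted p = 0.029), the 1 gene of the 9 called there, where 1.08% of all genes were. Beads and untreated cells differed in VWF by 0.33 ± 0.18 in the 16 arrays (adjusted p = 1.0), with 0 of 9 genes called (0% of all genes).

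Thrombomodulin (THBD), the thrombin receptor that starts protein C activation, differed from the other members in that the third untreated array resembled the other untreated arrays. Its values were 7.84, 7.82 and 7.56 with JinB8 CD63+ EVs, 7.85, 7.68 and 7.61 with Jurkat CD63+ EVs, 7.43, 7.504 and 7.43 with JinB8 MHC1+ EVs, and 7.83, 7.55 and 7.44 with Jurkat MHC1+ EVs. Beads gave 7.40, 7.19 and 6.47, and untreated cells 7.32, 7.44 and 7.32. All 12 EV arrays lay above the 3 bead arrays, and 9 of them lay above the untreated arrays too; the JinB8 MHC1+ arrays were the nearest to the controls. The difference from the beads was 0.61 ± 0.17 in the 18 arrays (limma adjusted p = 0.52) and 0.33 ± 0.12 in the 16 (adjusted p = 1.0; 95% interval 0.08 to 0.59), a fold of 1.26. It stayed positive with each of the 18 arrays left out in turn, between 0.33 and 0.80. Against all controls it was 0.44 ± 0.13 in the 18 arrays (adjusted p = 0.27), with 0 of 9 genes called (0.00543% of all genes).

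**Figure D2:**
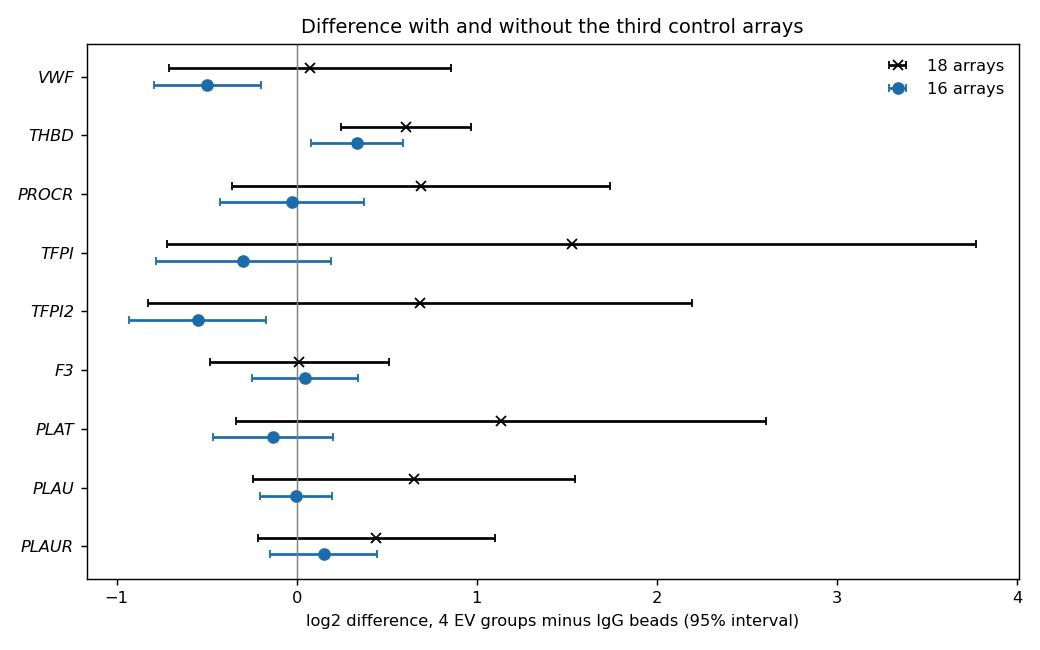
Log2 difference (horizontal axis) of the 4 EV groups together minus IgG beads for each of the 9 genes, with 95% intervals of the linear model, fitted on 18 arrays (crosses) and on the 16 without the third control arrays (circles). TFPI2 is at 0.68 in the 18 arrays and at -0.55 in the 16. THBD, PLAUR and F3 are positive in both, PLAUR at 0.44 and 0.15 and F3 at 0.01 and 0.05.

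The 4 vesicle types were also set against the beads one by one. In the 16 arrays TFPI2 differed from the beads by -0.67 ± 0.21 with JinB8 CD63+ EVs, -0.37 ± 0.21 with Jurkat CD63+ EVs, -0.27 ± 0.21 with JinB8 MHC1+ EVs and -0.89 ± 0.21 with Jurkat MHC1+ EVs. Without the first Jurkat MHC1+ array the value for Jurkat MHC1+ EVs was -0.66, beside -0.67 for JinB8 CD63+ EVs. These comparisons share the bead arrays. The corresponding values of VWF were -0.51, -0.30, -0.62 and -0.55, each ± 0.17, and those of THBD were 0.44, 0.42, 0.16 and 0.31, each ± 0.14. Of the 9 genes, 0 were called in each of these comparisons in the 16 arrays, where 0.0923% of all genes were called for JinB8 CD63+, 0.00543% for Jurkat CD63+, 0.212% for JinB8 MHC1+ and 0% for Jurkat MHC1+ EVs. At an unadjusted p under 0.05 limma gave 3 of 9 with JinB8 CD63+ EVs (6.7% of all genes), 1 of 9 with Jurkat CD63+ EVs (1.55%), 1 of 9 with JinB8 MHC1+ EVs (5.18%) and 3 of 9 with Jurkat MHC1+ EVs (9.33%).

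**Figure D3:**
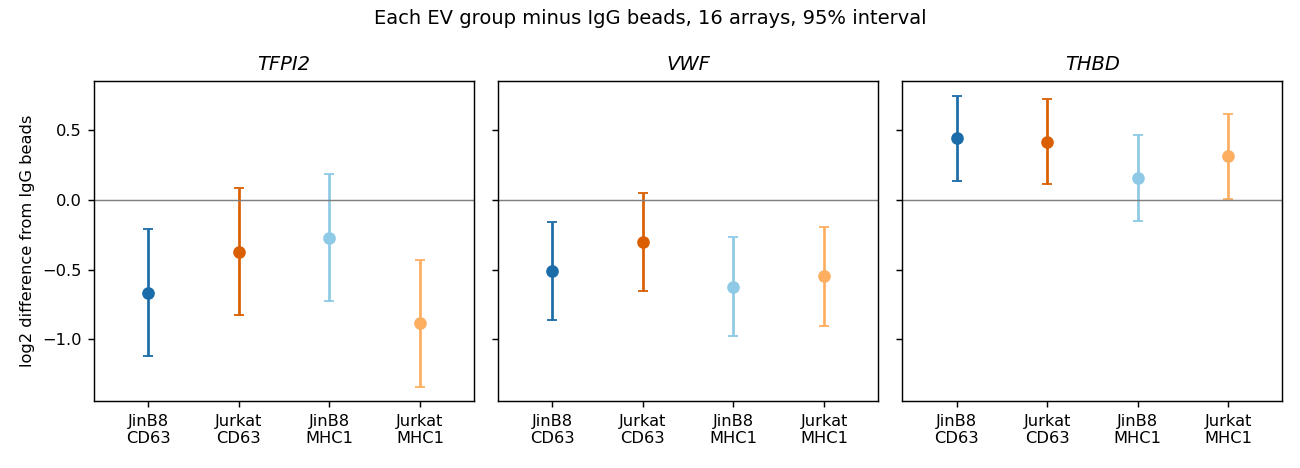
Log2 difference (vertical axis) of each EV group minus IgG beads in the 16 arrays for TFPI2, VWF and THBD; points are model estimates and bars 95% intervals. TFPI2 is at -0.89 with Jurkat MHC1+ EVs and at -0.67 with JinB8 CD63+ EVs, VWF is negative in all 4 groups, and THBD is nearest 0 with JinB8 MHC1+ EVs at 0.16.

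TFPI, the inhibitor of the tissue factor complex, followed the spread of the arrays closely. It stood at 9.87, 10.22 and 9.75 with JinB8 CD63+ EVs, at 10.36, 10.12 and 10.35 with Jurkat CD63+ EVs, at 10.21, 10.62 and 10.66 with JinB8 MHC1+ EVs, and at 9.31, 10.23 and 10.53 with Jurkat MHC1+ EVs. Beads gave 10.56, 10.40 and 5.01 and untreated cells 10.14, 10.45 and 5.21. The arrays with the smallest SD over all probe sets among the 16 were the first Jurkat MHC1+ array (2.005), the third JinB8 CD63+ array (2.05) and the first JinB8 CD63+ array (2.12). These were also the lowest of the 16 in TFPI. The difference of the EV groups from the beads was 1.53 ± 1.05 in the 18 arrays (limma adjusted p = 0.52) and -0.30 ± 0.23 in the 16 (adjusted p = 1.0; 95% interval -0.78 to 0.19). JinB8 CD63+ against JinB8 MHC1+ EVs gave -0.55 ± 0.24 in the 16 arrays (adjusted p = 0.29) and 0.06 ± 0.14 with the array spread as a covariate. The array SDs of these groups did not overlap, at 2.05 to 2.19 for JinB8 CD63+ and 2.21 to 2.25 for JinB8 MHC1+ EVs. The covariate fit therefore cannot tell array spread from group in this comparison.

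**Figure D4:**
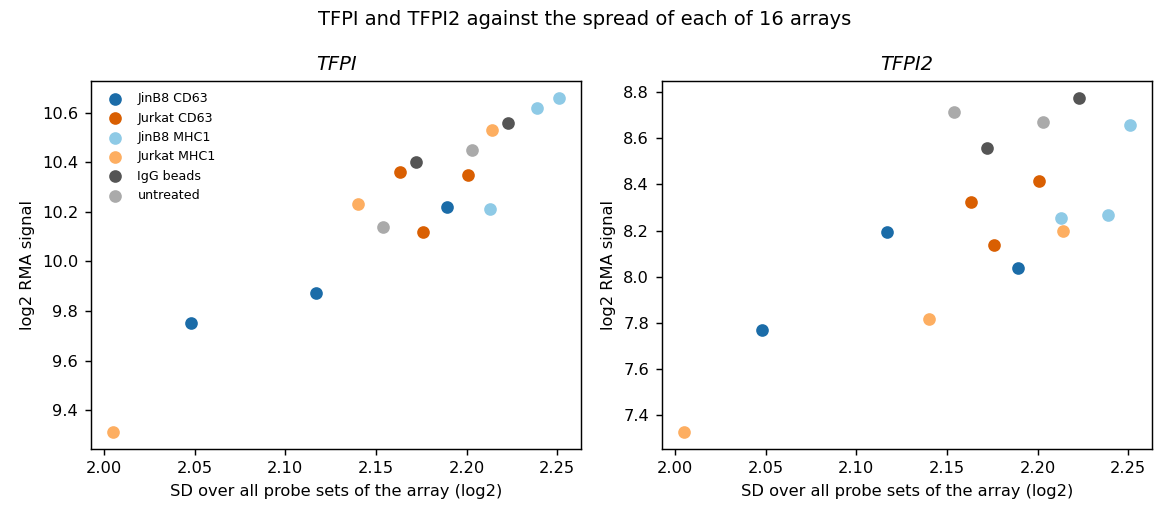
Log2 RMA signal of TFPI (left) and TFPI2 (right) against the SD over all probe sets of the same array (horizontal axes), for the 16 arrays, coloured by group. The 3 arrays of smallest SD are the 3 lowest in TFPI; in TFPI2, 11 of the 12 EV arrays lie below all 4 control arrays.

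PROCR, the receptor that presents protein C, ranged from 9.78 to 10.57 in the EV arrays, with a median of 10.32. Beads gave 10.63, 9.92 and 8.12, and untreated cells 10.62, 10.34 and 7.95. The first and second bead arrays thus spanned most of the EV range, and 2 EV arrays lay below both. The difference from the beads was 0.69 ± 0.49 in the 18 arrays and -0.03 ± 0.19 in the 16 (limma adjusted p = 1.0; 95% interval -0.43 to 0.37). JinB8 CD63+ arrays stood at 9.78, 10.38 and 9.96, below the JinB8 MHC1+ arrays at 10.43, 10.48 and 10.57, and these sets did not overlap. That difference was -0.45 ± 0.20 in the 16 arrays (adjusted p = 0.29), and -0.18 ± 0.20 with the array spread as a covariate. As for TFPI, the covariate fit cannot tell array spread from group here, because the array SDs of these groups did not overlap. In the comparison 0 of 9 genes were called (0.185% of all genes). At an unadjusted p under 0.05 limma gave 3 of 9, PROCR among them, beside 16.6% of all genes.

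F3, which encodes tissue factor, the initiator of clotting, gave low and even signal. It ranged from 4.38 to 4.93 in the EV arrays, with a median of 4.62, and stood at 4.72, 4.43 and 4.67 with beads and at 4.59, 4.60 and 5.95 in untreated cells. Apart from the third untreated array, each of these values lay below the median of its own array (4.86 to 5.13 in the 16 arrays). No detection calls were analysed here, and differences at this level may say little about F3 RNA. EV groups and beads differed by 0.01 ± 0.23 in the 18 arrays and by 0.05 ± 0.14 in the 16 (limma adjusted p = 1.0). The 95% interval in the 16 arrays ran from -0.25 to 0.34, that is, from a fold of 0.843 to one of 1.27.

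Of the plasminogen activators, PLAU had the narrowest range of the 9 genes. In the 16 arrays its values spanned 0.26, between 8.62 and 8.88, with 8.71 and 8.79 in the first and second bead arrays and 8.64 in both of the corresponding untreated arrays. The third bead and untreated arrays stood at 6.79 and 6.45. The difference of the EV groups from the beads was 0.65 ± 0.42 in the 18 arrays and -0.002 ± 0.09 in the 16 (limma adjusted p = 1.0). The 95% interval there, -0.20 to 0.20, corresponds to folds of 0.87 to 1.15.

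PLAT, the tissue plasminogen activator, ranged from 10.82 to 11.43 in the EV arrays, with a median of 11.08. It stood at 11.47, 11.01 and 7.44 with beads and at 11.29, 11.32 and 8.25 in untreated cells. The difference from the beads was 1.13 ± 0.69 in the 18 arrays and -0.13 ± 0.16 in the 16 (limma adjusted p = 1.0; 95% interval -0.46 to 0.20). The JinB8 CD63+ arrays, at 10.82, 10.84 and 10.89, lay below all 3 Jurkat CD63+ arrays, at 11.31, 10.92 and 11.43. JinB8 differed from Jurkat within CD63 capture by -0.37 ± 0.17 in the 16 arrays (adjusted p = 0.87), with 0 of 9 genes called (0% of all genes).

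PLAUR, the urokinase receptor, separated the Jurkat MHC1+ arrays from the other vesicle groups in part. It stood at 7.95, 8.35 and 7.99 with JinB8 CD63+ EVs, at 8.09, 8.08 and 8.29 with Jurkat CD63+ EVs, at 8.12, 8.11 and 8.12 with JinB8 MHC1+ EVs, and at 7.55, 7.52 and 8.05 with Jurkat MHC1+ EVs. Beads gave 7.95, 7.79 and 6.99 and untreated cells 7.92, 7.83 and 6.08. The first and second Jurkat MHC1+ arrays lay below the first and second arrays of both controls, and the last lay above them. In all, 9 of the 12 EV arrays lay above those 4 control arrays and 2 lay below. The difference of the EV groups from the beads was 0.44 ± 0.31 in the 18 arrays (limma adjusted p = 0.52) and 0.15 in the 16. With 1 array left out at a time it stayed between 0.15 and 0.63. JinB8 differed from Jurkat within MHC1 capture by 0.41 ± 0.15 in the 16 arrays (limma adjusted p = 0.12), and by 0.17 ± 0.14 with the array spread as a covariate (adjusted p = 0.89). CD63+ EVs differed from MHC1+ EVs of Jurkat by 0.45 ± 0.15 (adjusted p = 0.41), and the 95% interval ran from 0.13 to 0.77.

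The remaining comparisons gave the same count of calls. In the 18 arrays, where the third control arrays widen the spread, 0 of 9 genes were called for JinB8 against Jurkat within MHC1 capture (0.0326% of all genes), for CD63+ against MHC1+ EVs of both lines (0.0109%), and for any difference among the 6 groups (0.0109%) or among the 4 EV groups (0.0109%). At an unadjusted p under 0.05, THBD was the 1 of 9 in the 18 arrays for JinB8 CD63+ (1.48% of all genes), Jurkat CD63+ (1.06%) and Jurkat MHC1+ EVs (1.19%) against beads and for the 6 groups (1.09%). THBD, PLAU and PLAUR were 3 of 9 against all controls (10.3%). None of the 9 passed it for JinB8 MHC1+ EVs against beads (5.04%), beads against untreated cells (1.11%), JinB8 against Jurkat within MHC1 (3.43%) or within CD63 capture (0.255%), CD63+ against MHC1+ EVs of JinB8 (1.7%), of Jurkat (0.44%) or of both (0.402%), JinB8 against Jurkat over both captures (0.706%), the interaction (2.44%) or the 4 EV groups (0.966%). In the 16 arrays VWF, THBD and TFPI2 were 3 of 9 against all controls (4.53%) and among the 6 groups (8.07%), and PLAT was 1 of 9 for JinB8 against Jurkat within CD63 capture (4.02%). THBD, PROCR and TFPI were 3 of 9 for CD63+ against MHC1+ EVs of JinB8 (16.6%), THBD was 1 of 9 for both lines (4.2%), and TFPI2 and PLAUR were 2 of 9 among the 4 EV groups (14.4%).

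Whether the loss of CD47 in the donor cell or the captured subset mattered was compared within the vesicle groups, where the values of the differences do not use the control arrays. JinB8 against Jurkat within MHC1 capture had 0 of 9 genes called in the 16 arrays (0.386% of all genes), and CD63+ against MHC1+ EVs of Jurkat also had 0 (0.00543%). The unadjusted counts were 2 of 9 in each, TFPI2 and PLAUR, beside 29.6% and 11% of all genes. TFPI2 gave 0.61 ± 0.19 between JinB8 and Jurkat MHC1+ EVs (limma adjusted p = 0.097; 95% interval 0.21 to 1.02). Without the first Jurkat MHC1+ array that value was 0.39 ± 0.16 (adjusted p = 0.37), and with the array spread as a covariate it was 0.22 ± 0.15 (adjusted p = 0.86).

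The test of whether the JinB8 to Jurkat difference itself depended on the capture gave 0 of 9 genes called in the 16 arrays (0.0163% of all genes). At an unadjusted p under 0.05 it gave PROCR, TFPI, TFPI2 and PLAUR, 4 of 9, beside 28.7% of all genes. The interaction was -0.91 ± 0.27 for TFPI2 (limma adjusted p = 0.14), -0.80 ± 0.34 for TFPI (adjusted p = 0.16), -0.65 ± 0.28 for PROCR (adjusted p = 0.16) and -0.47 ± 0.21 for PLAUR (adjusted p = 0.17). Within CD63 capture none of the 4 passed even an unadjusted p under 0.05 between JinB8 and Jurkat, with values of -0.29 for TFPI2, -0.33 for TFPI, -0.28 for PROCR and -0.06 for PLAUR. Within MHC1 capture the values of TFPI and PROCR, 0.47 and 0.37, did not pass it either. The 3 arrays of smallest SD were 1 of Jurkat MHC1+ and 2 of JinB8 CD63+ EVs, and the part of array spread in the interaction was not tested. With that spread as a covariate the values were -0.30 for TFPI2, 0.11 for TFPI, -0.24 for PROCR and -0.09 for PLAUR.

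The sequences just before the start of these 4 genes are given because the genes had an unadjusted p under 0.05 in that test, which 28.7% of all genes had; PLAT and VWF were also negative in it, at -0.29 and -0.13. Each is the 150 bases upstream of the annotated RefSeq start in GRCh38.p14, 5′ to 3′ on the gene's strand. Capitals mark GGGCGG (the GC box, bound by Sp1 family factors), TGANTCA (the AP-1 motif) and TATAAA (the letters of the TATA box). Each was searched on both strands, whatever its direction or distance from the start, and no marked motifs overlap. The windows are chr7:93890754-93890903 (minus strand) for TFPI2, chr2:187554436-187554585 (minus strand) for TFPI, chr20:35171922-35172071 (plus strand) for PROCR and chr19:43670170-43670319 (minus strand) for PLAUR.
TFPI2: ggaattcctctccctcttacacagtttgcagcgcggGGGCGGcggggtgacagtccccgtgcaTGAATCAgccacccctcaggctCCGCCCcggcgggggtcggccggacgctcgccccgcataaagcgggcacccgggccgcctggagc
TFPI: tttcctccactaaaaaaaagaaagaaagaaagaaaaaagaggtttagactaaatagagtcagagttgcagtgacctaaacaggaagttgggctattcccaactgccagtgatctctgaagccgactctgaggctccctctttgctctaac
PROCR: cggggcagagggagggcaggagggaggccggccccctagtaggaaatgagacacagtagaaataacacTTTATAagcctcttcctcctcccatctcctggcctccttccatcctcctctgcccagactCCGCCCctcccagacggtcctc
PLAUR: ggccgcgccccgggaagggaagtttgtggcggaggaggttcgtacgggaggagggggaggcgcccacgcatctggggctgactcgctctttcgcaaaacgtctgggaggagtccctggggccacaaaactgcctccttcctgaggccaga

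The 4 windows have little in common. TFPI2 is rich in G and C (72%, with 16 CpG pairs), as is PLAUR (66%, with 11), while TFPI is at 42% with 1 CpG pair and PROCR at 60.7% with 4. The median of 35116 such windows was 60% with 7 CpG pairs. TFPI2 holds 2 GC boxes and 1 AP-1 motif, and none of the marked motifs is in the windows of TFPI or PLAUR. PROCR holds 1 GC box and 1 match to TATAAA. That match is on the opposite strand (TTTATA as printed), so it is not called a TATA box of PROCR here. Of all windows, 36.8% hold a GC box, 4.17% the AP-1 motif and 6.71% TATAAA, each on either strand.

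The other genes of clotting and clot removal were read from 7 lists, with 50 of 53 listed genes measured. None passed the test in any contrast in the 18 or the 16 arrays, and the smallest adjusted p in the 16 arrays was 0.07. For the EV groups against the beads in the 16 arrays, the median difference was -0.17 over 3 thrombin receptors and 0.06 over 9 inhibitors and receptors of the plasminogen system. It was -0.06 over 6 partners of proteins C and S, 0.08 over 14 clotting factors and antithrombins, -0.16 over 10 genes of VWF storage and processing, -0.11 over 6 platelet-inhibiting enzymes and 0.34 over 2 flow-responsive factors. In the 18 arrays these medians were 0.64, 0.02, 0.20, -0.29, 0.50, 0.16 and 0.25. Group means of the clotting factors and antithrombins ran from 2.94 (FGG) to 5.67 (F7) in the 16 arrays, where array medians were 4.86 to 5.13. Differences at such low signal may say little about expression. The smallest adjusted p belonged to PTGS2, the inducible cyclooxygenase that supplies prostacyclin synthesis. It averaged 6.66 with JinB8 MHC1+ EVs and 5.69 with Jurkat MHC1+ EVs, a difference of 0.97 ± 0.22 in the 16 arrays (limma adjusted p = 0.07). Its other means there were 6.595 with beads, 6.572 in untreated cells, 6.14 with Jurkat CD63+ EVs and 5.745 with JinB8 CD63+ EVs. Of all genes, 29.6% had an unadjusted limma p under 0.05 for JinB8 against Jurkat within MHC1 capture. KLF4, a flow-responsive transcription factor that induces THBD in endothelium, differed between EV groups and beads by 0.47 ± 0.16 (limma adjusted p = 1.0). KLF2, the other flow-responsive factor listed, differed by 0.21 ± 0.16 in the 16 arrays. A link of either factor to the THBD values was not tested. PTGS2 and KLF4 were chosen for mention after their values were seen.

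Over the 16 arrays, the genes whose values ran most like those of each member are given as a description; the arrays share groups and array quality. They were SEMA3A, SLC30A9 and CFI for TFPI (Pearson's r = 0.97 each) and GGH, SKA2 and SPDL1 for TFPI2 (0.93, 0.93 and 0.91). For PROCR they were TUBB4B, RPL8 and PFDN1 (0.94 each), for VWF MYO10, GIMAP8 and PHACTR2 (0.92, 0.91 and 0.89), and for THBD MMP8, OR5T1 and ZDHHC1 (0.89, 0.84 and 0.83). PLAUR ran most like SIAE, INIP and DALRD3 (0.91, 0.90 and 0.89), PLAT like RARB, SULF1 and GDF3 (0.85, 0.83 and 0.82), and F3 like MAP4K1, WDR45 and SRP19 (0.86, 0.86 and 0.81). PLAU had the weakest match, with TRAF7 and MEN1 at 0.72 and PNPLA6 at 0.71. Among the 9 genes themselves the closest pair was TFPI and TFPI2, at 0.77.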

How the data were processed

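RMA and Affymetrix Expression Console are the tools the submitters' processing notes name; no version of them was found. The values deposited by the authors were taken as log2 signal, a scale read from their range. Labels give 300 ng of RNA per array, and name another extraction kit than the series design. Groups came from the bracketed sample names, since free text on 5 of the 6 JinB8 arrays carries other numbers. Of 33297 probe sets, 19460 had 1 symbol. The probe set with the highest mean was kept per gene, giving 18417 genes with no filter on level. A model with 1 mean per group was fitted in limma 3.58.1 (R 4.3.3; lmFit, eBayes; two-sided, Benjamini-Hochberg over all genes), on 18 arrays and on 16, and tested on simulated data. Other settings left out each array or changed the normalization, filter, variance model, control or array weights. The rule names all 9 members, the 3 genes most like each over 16 arrays, and listed genes that were called. Members and lists were chosen with earlier results of these data known. Figures used matplotlib 3.10.9. An array gives no read depth, so its precision rests on the number of arrays. Serial numbers of a group adjoin, and batch and group cannot be told apart.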

Additional observations from a re-analysis of the deposited data

How the results depend on the processing

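No paired analysis was possible because the labels give the arrays no shared replicate numbers. The count of 0 of the 9 genes called held in each of the 16 comparisons in the 16 and the 15 arrays (also without the first Jurkat MHC1+ array) and with each of the 18 arrays left out. It also held, wherever a fit was run, with the lowest 25% of genes left out, another quantile normalization, centring on medians, trend and robust options, only the groups compared, all probe sets, and untreated cells as the control. These fits kept the third control arrays, except where only EV groups were fitted, and leaving out 1 array kept at least 1 of them. Few genes of any kind were called in the 18 arrays (0% to 0.0434%), so these settings do not test the result of the 16 arrays. Each of the 9 genes had 1 probe set, so testing all probe sets left their values unchanged. Settings added after seeing the data changed the count of 0, and the cause was not tested. Gene-by-gene array weights called 1 (TFPI2) for Jurkat MHC1+ EVs and 1 (VWF) for JinB8 MHC1+ EVs against beads (1.36% and 5.58% of all genes), 1 (THBD) against all controls (0.831%), 5 for JinB8 against Jurkat MHC1+ EVs (45.4%), 2 for CD63+ against MHC1+ EVs of Jurkat (11.1%), 3 of JinB8 (24.9%) and 1 of both (2.6%), 4 in the interaction (36.5%), 5 among the 6 groups (36%) and 6 among the 4 EV groups (44%). The array SD as a covariate called 1 (VWF) for JinB8 MHC1+ EVs against beads and 1 (TFPI2) against all controls. Planned weights by restricted likelihood stopped before convergence and are not counted. Signs turned without the third control arrays. For all EV groups against beads, the 16 arrays, the 15 arrays and the covariate fit gave VWF -0.50, -0.46 and -0.45, TFPI2 -0.55, -0.49 and -0.43, TFPI -0.30, -0.21 and -0.12, and PLAT -0.13, -0.14 and -0.11. PROCR gave -0.026 and -0.017 in the 16 and 15 arrays, PLAU -0.0023 in the 16, and F3 -0.016 with the covariate. In the same order, Jurkat MHC1+ EVs against beads gave VWF -0.55, -0.42 and -0.45 and TFPI2 -0.89, -0.66 and -0.62, and JinB8 CD63+ EVs gave VWF -0.51, -0.51 and -0.41 and TFPI2 -0.67, -0.67 and -0.39. Against all controls VWF gave -0.33, -0.30 and -0.30 and TFPI2 -0.56, -0.51 and -0.48. With the covariate TFPI gave 0.057 for CD63+ against MHC1+ EVs of JinB8 and 0.11 in the interaction. With 1 array left out at a time, all EV groups against beads ranged over -0.50 to 0.41 for VWF, -0.026 to 1.23 for PROCR, -0.30 to 2.48 for TFPI, -0.55 to 1.36 for TFPI2, -0.073 to 0.069 for F3, -0.13 to 1.88 for PLAT and -0.0023 to 0.996 for PLAU; the low end, F3 apart, is without the third bead array. The ranges were -0.55 to 0.36 (VWF) and -0.89 to 1.02 (TFPI2) for Jurkat MHC1+ EVs, -0.51 to 0.40 and -0.67 to 1.24 for JinB8 CD63+ EVs, -0.62 to 0.29 (VWF) for JinB8 MHC1+ EVs, and -0.049 to 0.46 and -0.0085 to 0.94 against all controls. With 2 arrays in each control group after exclusion, the width of the 95% intervals limits what could be detected.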
